A study of Homo sapiens with 46 samples.

Results

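NODAL, its antagonists LEFTY1, LEFTY2 and CER1, and its co-receptor TDGF1 were followed in H1 cells, an established line of human embryonic stem cells, before and during neural conversion. The files give transcript identifiers without gene names, so the 5 genes were found by identifier and by the length value that stands beside it, which equals the protein's residues less 19. All 5 rows were found among 63691, namely uc001jrc.2 (NODAL), uc001hpo.3 (LEFTY1), uc001hpt.2 (LEFTY2), uc003cpv.3 (TDGF1) and uc003zlj.3 (CER1).

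NODAL is a secreted ligand of the TGF-beta family that signals through activin receptors and the transcription factors SMAD2 and SMAD3, and in human embryonic stem cells this signal helps to keep the undifferentiated state. TDGF1, also called CRIPTO, is a cell-surface protein that NODAL needs as a co-receptor. LEFTY1 and LEFTY2 are secreted antagonists that are themselves switched on by the pathway, and CER1 (Cerberus) is a secreted antagonist of NODAL and BMP ligands. Blocking this pathway is a common way to drive stem cells towards neural fates.

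The cells were grown on mTESR1 medium with no feeder layer and carried a lentiviral short hairpin RNA against KBTBD8 (shKBTBD8), one against TCOF1 (shTCOF1) or a control hairpin (shControl). They were collected undifferentiated (hES) and on days 1, 3 and 6 of culture in NIM, the medium of the neural conversion (ND1, ND3, ND6). KBTBD8 brings substrates to a ubiquitin ligase built on CUL3, and treacle, the product of TCOF1, is a protein of the nucleolus. Each group was measured by mRNA sequencing and by ribosome footprinting, which sequences the mRNA pieces that ribosomes shield from RNase I. The 46 libraries form a first set of 32 (shKBTBD8 and shControl at 4 stages, 2 replicates per group and assay) and a second set of 14, 7 per assay. Per assay, the second set has shKBTBD8, shTCOF1 and shControl at ND3 and shKBTBD8 and shTCOF1 at hES, all with 1 library, and shControl at hES with 2. The sets are told apart by the style of their titles alone.

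Counted on 1 row per transcript, mRNA libraries held 16.3 to 27.1 M counts (first set) and 11.3 to 29.2 M (second set). Footprint libraries were shallower, at 1.03 to 10.2 M (first set) and 4.07 to 7.93 M (second set). Levels are CPM, counts scaled to a common library size of 1 M, within a set and assay, and intervals are 95% exact intervals that cover counting error only. Whether replicates were separate cultures is not in the labels, and p-values here reflect the spread among these samples alone, which may be technical. Where libraries of groups are said not to overlap, the share of all transcripts that separated likewise was not counted. The same holds where all libraries of a group are said to lie above or below those of another. The levels of KBTBD8 and TCOF1, and marker genes of the labelled cell types, were not analysed here because the files do not pair identifiers with names.

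LEFTY1 and LEFTY2 are near-identical genes of chromosome 1, and their rows moved together over the 46 libraries as closely as rows that hold the same reads (chi-square per degree of freedom 1.56, where under 2 was taken as shared reads). They are therefore given side by side and not as independent evidence. Over the 8 hES libraries of each assay, the LEFTY1 count was 1.01 to 1.47 times the LEFTY2 count in mRNA (median 1.33) and 0.690 to 1.23 times in footprints (median 1.06). The TDGF1 row moved with a shorter row, uc021wxd.1, which was joined to it as holding the same reads. Apart from this, TDGF1 has near-identical pseudogene copies, so its counts are uncertain, and the part of those copies was not tested.

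The regions just upstream of NODAL and CER1 are shown because they belong to the ligand and to an antagonist whose mRNA had nearly gone after a day of conversion, as had that of the LEFTY genes, and because they were the promoters of the 5 genes at hand. RefSeq (GRCh38.p14) gives the 250 bases before the start of NODAL as chr10:70441682-70441931 and of CER1 as chr9:14722734-14722983, both on the minus strand. The sequences run 5′ to 3′ on the strand of the gene, with the letters of a SMAD-type motif, CAGAC, in capitals.
NODAL: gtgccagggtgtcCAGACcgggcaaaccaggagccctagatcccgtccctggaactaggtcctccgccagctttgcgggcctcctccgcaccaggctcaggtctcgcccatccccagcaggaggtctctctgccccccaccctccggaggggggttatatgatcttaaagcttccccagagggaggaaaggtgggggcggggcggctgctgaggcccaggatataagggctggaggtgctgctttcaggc
CER1: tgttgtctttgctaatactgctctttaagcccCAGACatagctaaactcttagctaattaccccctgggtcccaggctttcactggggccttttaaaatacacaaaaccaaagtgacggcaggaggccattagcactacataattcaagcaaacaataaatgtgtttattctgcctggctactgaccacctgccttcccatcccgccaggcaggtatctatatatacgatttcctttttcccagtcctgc
The 4 motifs searched, on both strands, were CAGAC, the FOXH1 motif AATCCACA, the CCAAT box CCAAT and the TATA box TATAAA, which do not overlap in their matches here. CAGAC was found once in each window, at bases -237 to -233 of NODAL and -218 to -214 of CER1, on the strand of the gene. In 35116 promoter windows of the same length, 38.0% held CAGAC, 0.709% AATCCACA, 32.01% CCAAT and 10.7% TATAAA. The other 3 motifs were not in these windows. These matches are a description of letters and were not tied to any value below.

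In undifferentiated cells TDGF1 was by far the most abundant of the 5. Per 1000 length units, its mRNA level in the first set averaged 1279 ± 31.1 CPM in shKBTBD8 cells and 1106 ± 184 CPM in shControl cells (SD, n = 2 each, as for all first-set means). In shControl cells LEFTY1 followed at 35.5 ± 6.09 CPM per 1000 length units, LEFTY2 at 25.8 ± 6.48, NODAL at 22.5 ± 3.22 and CER1 at 5.11 ± 0.329. LEFTY1 and LEFTY2, and LEFTY2 and NODAL, lay within their spreads of each other, whereas TDGF1 above them and CER1 below them stood clear.

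**Figure D1:**
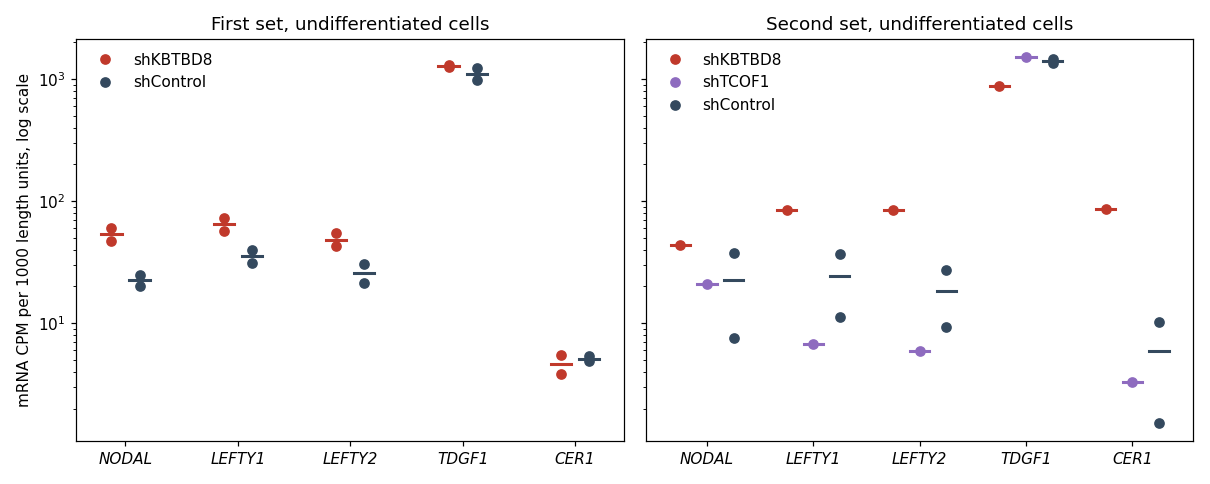
mRNA level of each gene in undifferentiated cells, in CPM per 1000 length units on a log axis; each point is a library, each bar a group mean, with the first set on the left and the second on the right. In the first set NODAL, LEFTY1 and LEFTY2 are higher in both shKBTBD8 libraries than in both shControl libraries; in the second set CER1 is at 86.2 in the shKBTBD8 library, 3.33 in the shTCOF1 library and 10.3 and 1.52 in the shControl libraries.

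Neural conversion of shControl cells was accompanied by loss of all 5 mRNAs, and NODAL, LEFTY1, LEFTY2 and CER1 were nearly gone after 1 day. NODAL mRNA was at 8.12 and 6.63 CPM in hES, 0.175 and 0.192 at ND1, 0 and 0.0379 at ND3, and 0 in both libraries at ND6. LEFTY1 was at 10.8 and 13.8 CPM in hES, 0.175 and 0.115 at ND1, 0.0993 and 0.0379 at ND3 and, at ND6, 0 and 0.0416. LEFTY2 was at 7.37 and 10.6 CPM in hES, 0.131 and 0.230 at ND1, 0.0993 and 0.0379 at ND3 and, at ND6, 0.0472 and 0.0416. For each of these genes every converted library lay far below both hES libraries. With edgeR's quasi-likelihood test over 17660 transcripts, all 5 genes fell at ND1 (log2 change -5.28 ± 0.39 SE and adjusted p 5.7e-07 for NODAL, -6.37 ± 0.35 and 2.3e-08 for LEFTY1, -5.57 ± 0.44 and 5.4e-07 for LEFTY2). Of all transcripts tested, 13.6% were called lower at ND1. In these mixed samples, fewer cells that make a transcript and less of it per cell cannot be told apart.

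The counts behind the later values were small. At ND3 the 2 shControl libraries held 1 NODAL count together, against 343 in hES, a ratio of 0.00292 (7.38e-05 to 0.0164). At ND6 they held none, which puts NODAL at least 110.9-fold lower than in hES when 3 counts over the group are taken as the floor. LEFTY1 and LEFTY2 held 3 counts each at ND3, with ratios of 0.00522 (0.00107 to 0.0153) and 0.00716 (0.00147 to 0.0211).

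TDGF1, the co-receptor, fell later than the ligand and the antagonists. Its mRNA was at 208.8 and 165 CPM in hES, 67.6 and 56.3 at ND1, 0.397 and 0.493 at ND3 and, at ND6, 0.330 and 0.375. At ND1 it thus kept 0.330 of its hES level (0.317 to 0.344, from pooled counts), while NODAL kept 0.0250 (0.0114 to 0.0481) and LEFTY1 0.0116 (0.00464 to 0.0240). The groups did not overlap, with a log2 change of -1.59 ± 0.17 at ND1 (edgeR adjusted p 1.1e-05), -8.68 ± 0.27 at ND3 (9.7e-11) and -9.02 ± 0.28 at ND6 (1.2e-11). The difference in timing between genes was not itself tested.

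CER1, the scarcest of the 5, did not decline steadily. Its mRNA was at 1.32 and 1.21 CPM in hES, 0 and 0.0384 at ND1, 0.397 and 0.569 at ND3 and, at ND6, 0.0472 and 0. The ND3 libraries, with 23 counts together, thus lay above those of ND1 and ND6, with 1 count each, and below those of hES, with 59. Against hES, CER1 fell by 5.62 ± 0.72 on the log2 scale at ND1 (edgeR adjusted p 5.5e-05), by 1.36 ± 0.42 at ND3 (0.015) and by 5.53 ± 0.73 at ND6 (1.5e-05). The ND3 call was lost without replicate 1 of hES shControl (-1.29, adjusted p 0.052), without replicate 1 of ND3 shControl (-1.15, 0.10) and by DESeq2 (-1.39, 0.096). All 5 genes were called lower at ND3 and again at ND6, where 23.8% and 29.4% of all transcripts were called lower. The 3 days share the same hES libraries.

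**Figure D2:**
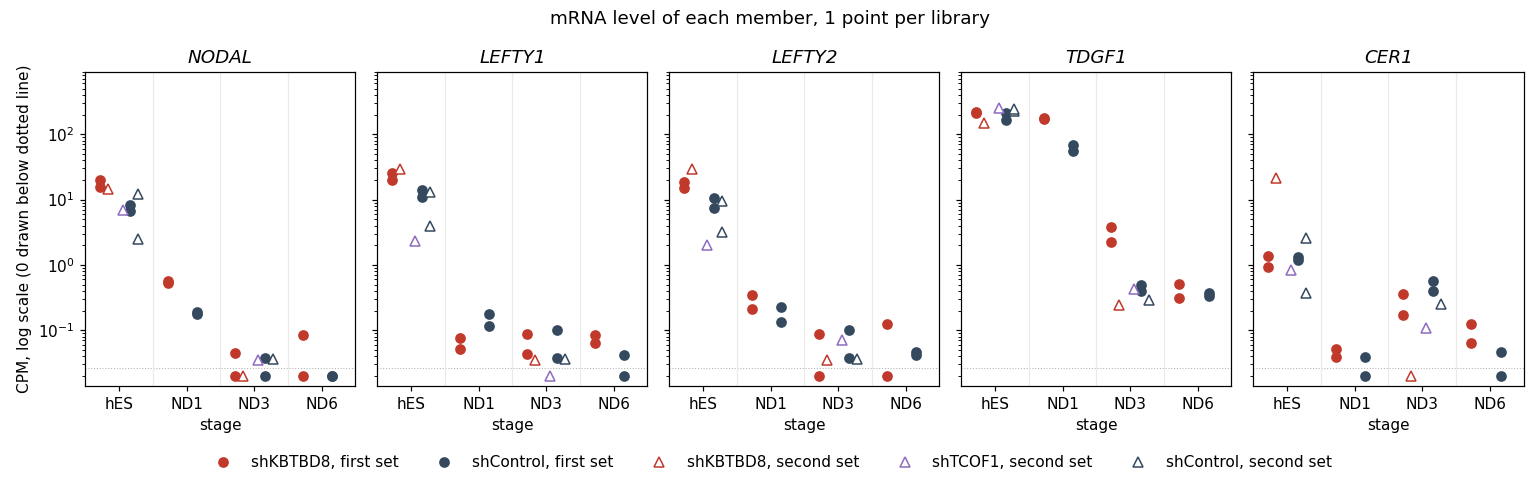
mRNA level of each gene by stage, in CPM on a log axis, 1 point per library, with shKBTBD8 left of shTCOF1 and shControl at each stage; filled points are the first set, open triangles the second, and libraries with no count are drawn below the dotted line. NODAL, LEFTY1 and LEFTY2 are below 1 CPM in every converted library, whereas TDGF1 at ND1 is at 173.5 and 176.7 CPM in shKBTBD8 cells and 67.6 and 56.3 CPM in shControl cells.

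In shKBTBD8 cells the ligand and the antagonists were called lower at ND1 as well, whereas TDGF1 was not called until ND3. NODAL mRNA was at 19.9 and 15.6 CPM in shKBTBD8 hES cells, 0.575 and 0.536 at ND1, 0.0444 and 0 at ND3 and, at ND6, 0.0844 and 0. TDGF1 was at 219.8 and 212.3 CPM in hES, 173.5 and 176.7 at ND1, 3.78 and 2.26 at ND3 and, at ND6, 0.507 and 0.316. Both ND1 libraries lay below both hES libraries for TDGF1, which kept 0.811 of its hES level (0.788 to 0.835, from pooled counts). Its change at ND1 was -0.30 ± 0.17 (edgeR adjusted p 0.20), and at ND3 it was -6.16 ± 0.22 (3.7e-10). At ND1, 4 of 5 genes were called lower, among 13.8% of all transcripts, and all 5 were called lower at ND3 and ND6, among 24.9% and 29.3%. CER1 in these cells was at 0.943 and 1.353 CPM in hES, 0.0522 and 0.0383 at ND1, 0.356 and 0.171 at ND3 and, at ND6, 0.127 and 0.0632. The ND3 libraries again held more CER1 (12 counts) than those of ND1 (2) and ND6 (4).

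The comparison of shKBTBD8 with shControl at each stage asks what the KBTBD8 hairpin changes, and TDGF1 was the gene among the 5 that passed the test. At ND1, TDGF1 mRNA was at 173.5 and 176.7 CPM in shKBTBD8 cells and 67.6 and 56.3 CPM in shControl cells. At ND3 it was at 3.78 and 2.26 CPM in shKBTBD8 cells and 0.397 and 0.493 CPM in shControl cells. The groups did not overlap on either day. TDGF1 was higher in shKBTBD8 cells by 1.50 ± 0.17 on the log2 scale at ND1 (edgeR adjusted p 0.00055) and by 2.73 ± 0.32 at ND3 (9.5e-05). The ND3 call was lost when both sets were fitted together (2.30, edgeR adjusted p 0.051), TDGF1 mRNA at ND3 in the second set being at 0.242 CPM with shKBTBD8 and 0.293 CPM with shControl. In the first set TDGF1 was 1 of 5 genes called higher at ND1, against 0.544% of all transcripts, and 1 of 5 at ND3, against 4.51%.

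At hES and ND6 the TDGF1 groups were close. In hES cells TDGF1 mRNA was at 219.8 and 212.3 CPM with shKBTBD8 and 208.8 and 165 CPM with shControl, a log2 change of 0.21 ± 0.17 (edgeR adjusted p 1). At ND6 the libraries overlapped, with 0.507 and 0.316 CPM in shKBTBD8 cells and 0.330 and 0.375 CPM in shControl cells (0.27 ± 0.49, adjusted p 0.85), on 17 and 16 counts. No member was called at ND6 by edgeR or DESeq2 or had an unadjusted p under 0.05, while edgeR called 3.99% of all transcripts. DESeq2 called 946 transcripts, and 2831 had an unadjusted p under 0.05. Set against its effect at hES, the shKBTBD8 effect on TDGF1 mRNA was larger by 2.52 ± 0.37 at ND3 (edgeR adjusted p 0.0029), when 0.963% of all transcripts were called higher in this way. The difference was 1.29 ± 0.24 on day 1 (0.45) and 0.063 ± 0.50 on day 6 (0.99), when 0.866% of all transcripts were called. On day 1 edgeR called 0 of 17660 transcripts in this way, although 362 had an unadjusted p under 0.05 and DESeq2 called 7, TDGF1 among them (1.29, adjusted p 0.00376).

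**Figure D3:**
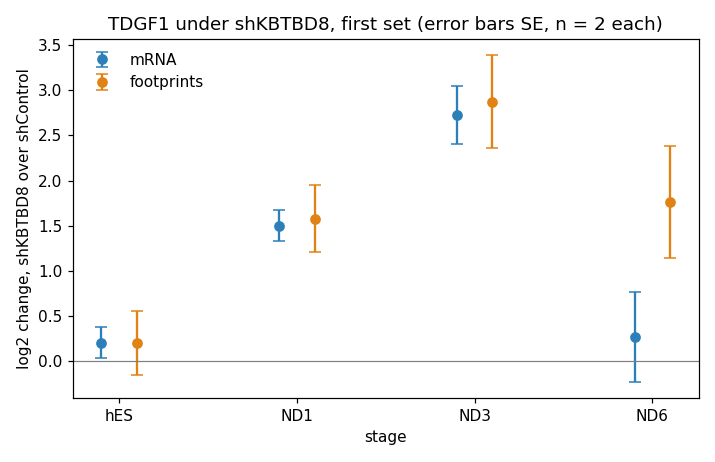
Log2 change of TDGF1 in shKBTBD8 over shControl cells of the first set, for mRNA and footprints at each stage, with bars of 1 SE (n = 2 libraries per group). Both assays lie near 0.2 at hES and reach 2.73 for mRNA and 2.87 for footprints at ND3; at ND6 mRNA is at 0.27 and footprints at 1.76, of which neither passed the test.

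In undifferentiated cells the ligand and the LEFTY antagonists were higher with shKBTBD8, but these differences missed the threshold in the main edgeR fit. With the replicate number as a block, NODAL (1.26, edgeR adjusted p 0.016) and LEFTY1 (0.88, 0.035) passed. NODAL mRNA was at 19.9 and 15.6 CPM in shKBTBD8 cells and 8.12 and 6.63 CPM in shControl cells. LEFTY1 was at 19.9 and 25.4 CPM in shKBTBD8 cells and 10.8 and 13.8 CPM in shControl cells. LEFTY2 was at 14.8 and 18.9 CPM in shKBTBD8 cells and 7.37 and 10.6 CPM in shControl cells. For these 3 genes both shKBTBD8 libraries lay above both shControl libraries, LEFTY1 and LEFTY2 not being independent evidence. The share of all transcripts that separated in this way was not counted. The log2 changes were 1.27 ± 0.25 for NODAL, 0.88 ± 0.21 for LEFTY1 and 0.91 ± 0.28 for LEFTY2, with edgeR adjusted p of 0.070, 0.14 and 0.36. edgeR called 0 of 5 genes, against 0.181% of all transcripts. The same 3 genes had an unadjusted p under 0.05, as had 1062 of 17660 transcripts. DESeq2 called 1 gene, NODAL (1.27, adjusted p 0.0092), among 119 transcripts.

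CER1 did not share this direction in the first set, at 0.943 and 1.353 CPM in shKBTBD8 hES cells and 1.32 and 1.21 CPM in shControl hES cells (-0.14 ± 0.37, edgeR adjusted p 1). At ND1, NODAL was at 0.575 and 0.536 CPM in shKBTBD8 cells and 0.175 and 0.192 CPM in shControl cells, on 25 and 9 counts. These groups did not overlap, and the change of 1.56 ± 0.53 did not pass (edgeR adjusted p 0.21). LEFTY1, LEFTY2 and CER1 held 13 or fewer counts per group at ND1.

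Footprints followed the mRNA in shControl cells, with shallower libraries and fewer calls. TDGF1 footprints were at 246.9 and 236.3 CPM in hES, 104.6 and 75.9 at ND1, 2.93 and 1.37 at ND3 and, at ND6, 3.995 and 0.373. NODAL footprints were at 5.95 and 9.58 CPM in hES and at 0 in every later shControl library except 1 at ND3, which held 1 count. LEFTY1 footprints were at 10.2 and 12.8 CPM in hES and LEFTY2 at 8.98 and 10.4, with at most 4 counts of either per group at ND1, 1 at ND3 and 0 at ND6. For these 4 genes every later library lay below both hES libraries. CER1 held 7 footprint counts in hES, did not pass the filter on low counts and was not tested.

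Of the 4 genes tested, edgeR called 0 lower at ND1, 3 at ND3 and 4 at ND6, where 0.514%, 3.75% and 8.78% of all transcripts were called lower. At ND1 all 4 had an unadjusted p under 0.05, as had 1531 of 16741 transcripts, and DESeq2 called all 4 among 458 transcripts. TDGF1 footprints changed by -1.41 ± 0.37 at ND1 (edgeR adjusted p 0.051), -6.83 ± 0.51 at ND3 (5.2e-09) and -6.72 ± 0.53 at ND6 (6.1e-09). The ND1 value passed by DESeq2, with its size factors, without the filter, over all deposited rows and when only the groups compared entered the fit (-1.39 to -1.45). NODAL, with 1 count at ND3, had an adjusted p of 0.073 there, and LEFTY1 and LEFTY2 had 0.0083 and 0.018.

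In shKBTBD8 cells TDGF1 footprints were at 259.2 and 297.2 CPM in hES, 287.1 and 254.3 at ND1, 10.9 and 20.9 at ND3 and, at ND6, 5.53 and 12.3. The hES and ND1 libraries overlapped, with a change of -0.039 ± 0.36 (edgeR adjusted p 0.99), and at ND3 TDGF1 fell by 4.16 ± 0.43 (6.3e-07). LEFTY1 was called lower at ND1, 1 of 4 genes against 0.597% of all transcripts (-5.60 ± 1.29, adjusted p 0.026), and that call was lost when any 1 of its 4 libraries was left out (-5.17 to -6.02, adjusted p 0.068 to 0.34). All 4 genes were called lower at ND3 and ND6, among 4.12% and 7.47% of all transcripts.

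**Figure D4:**
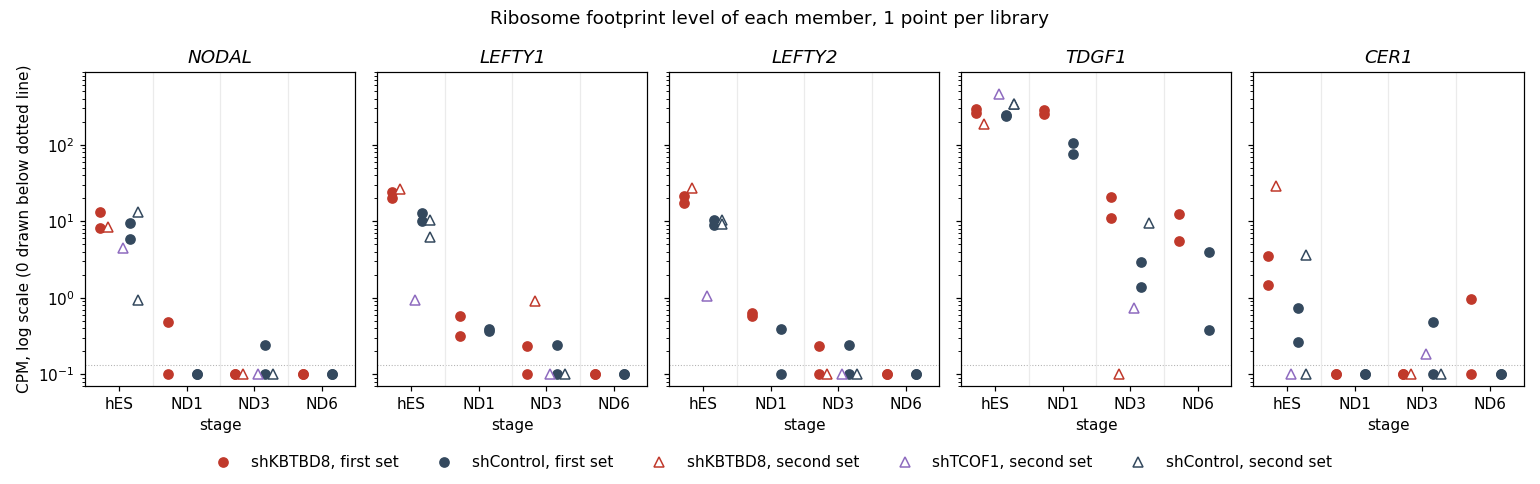
Ribosome footprint level of each gene by stage, in CPM on a log axis, 1 point per library, with shKBTBD8 left of shTCOF1 and shControl; filled points are the first set, open triangles the second, and libraries with no count are drawn below the dotted line. TDGF1 at ND3 is at 10.9 and 20.9 CPM in shKBTBD8 cells and 2.93 and 1.37 CPM in shControl cells of the first set, and at 0 CPM with shKBTBD8 and 9.61 CPM with shControl in the second.

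Between hairpins, TDGF1 footprints at ND1 and ND3 were higher in both shKBTBD8 libraries than in both shControl libraries, as its mRNA was. At ND1 they were at 287.1 and 254.3 CPM in shKBTBD8 cells and 104.6 and 75.9 CPM in shControl cells. At ND3 they were at 10.9 and 20.9 CPM in shKBTBD8 cells and 2.93 and 1.37 CPM in shControl cells. The log2 change was 1.58 ± 0.37 at ND1 (edgeR adjusted p 0.23) and 2.87 ± 0.52 at ND3 (0.0091), where TDGF1 was 1 of 4 genes called, against 0.191% of all transcripts called higher.

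The ND3 footprint call was lost without replicate 2 of ND3 shControl (2.38, edgeR adjusted p 0.086), without replicate 2 of ND3 shKBTBD8 (2.36, 0.13) when only the ND3 groups entered the fit (2.88, 1.00) and with both sets together (0.99, 0.86). At ND1 edgeR called 0 of 4 genes and 0.012% of all transcripts. TDGF1 had an unadjusted p under 0.05, as had 304 transcripts, and DESeq2 called it (1.60, adjusted p 0.0053) among 26 transcripts. TDGF1 was also called when only the ND1 groups entered the fit (1.57, edgeR adjusted p 0.00070). At ND6 TDGF1 footprints were at 5.53 and 12.3 CPM in shKBTBD8 cells and 3.995 and 0.373 CPM in shControl cells, without overlap, a change of 1.76 ± 0.62 (edgeR adjusted p 0.82). edgeR and DESeq2 called 0 of 4 genes at ND6, TDGF1 with an unadjusted p under 0.05, as had 812 transcripts. Of all transcripts, edgeR called 0.012% and DESeq2 called 45.

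The shKBTBD8 effect on TDGF1 footprints at ND3 exceeded that at hES by 2.67 ± 0.63 (edgeR adjusted p 0.32). It passed by DESeq2 (2.70, adjusted p 0.011) and without replicate 1 of ND3 shKBTBD8 (3.10, adjusted p 0.012). edgeR called 0 of 4 genes for this difference on any day, TDGF1 having an unadjusted p under 0.05 on all 3, and 0%, 0.0179% and 0.012% of all transcripts at ND1, ND3 and ND6. The share at ND1 is 0 of 16741 transcripts, of which 121 had an unadjusted p under 0.05 and DESeq2 called 4. At ND3 and ND6, 571 and 437 transcripts had an unadjusted p under 0.05, and DESeq2 called 21 and 4.

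In hES footprints LEFTY1 was at 20 and 24.1 CPM in shKBTBD8 cells and 10.2 and 12.8 CPM in shControl cells, and LEFTY2 at 17.3 and 21.7 against 8.98 and 10.4 CPM. For both, the shKBTBD8 libraries lay above the shControl ones, by 0.94 ± 1.01 and 1.01 ± 1.10 on the log2 scale (edgeR adjusted p 1 for each). NODAL footprints overlapped, at 13.2 and 8.10 CPM in shKBTBD8 cells and 5.95 and 9.58 CPM in shControl cells (0.46 ± 1.36, adjusted p 1). CER1 held 27 counts in shKBTBD8 cells and 7 in shControl cells, a ratio of 3.87 (1.64 to 10.5), with 1.49 and 3.502 against 0.728 and 0.266 CPM. At hES edgeR called 0 of 4 genes and 0 of 16741 transcripts; no member and 200 transcripts had an unadjusted p under 0.05, and DESeq2 called no member and 1 transcript.

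Footprints relative to mRNA, or translational efficiency, were compared to ask whether ribosome occupancy changed beyond the mRNA. In shControl cells the TDGF1 footprint level was 1.29 times its mRNA level (CPM over CPM) at hES, 1.46 at ND1, 4.84 at ND3 and 6.20 at ND6. The ND3 and ND6 ratios rest on 19 and 13 footprint counts and 21 and 16 mRNA counts. In an edgeR model over both assays, the footprint change against hES exceeded the mRNA change by 0.15 ± 0.41 at ND1 (adjusted p 1), 1.79 ± 0.65 at ND3 (0.56) and 2.22 ± 0.73 at ND6 (0.27). The ND6 value was -0.39 without the footprint library of replicate 1 and 3.05 (adjusted p 0.028) without that of replicate 2, which hold 12 and 1 counts.

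No member passed this test on any day of conversion, TDGF1 having an unadjusted p under 0.05 at ND3 and ND6 and passing by DESeq2 on both days (1.81 and 2.28, adjusted p 0.050 and 0.024). edgeR called 0.00566%, 0.0509% and 1.3% of all transcripts at ND1, ND3 and ND6. At ND3 and ND6, 921 and 1088 transcripts had an unadjusted p under 0.05, and DESeq2 called 203 and 345. Between hairpins the TDGF1 ratio was 1.29 in shKBTBD8 cells and 1.29 in shControl cells at hES, 1.55 and 1.46 at ND1, and 5.26 and 4.84 at ND3. At ND6 it was 21.7 in shKBTBD8 cells, on 37 footprint and 17 mRNA counts, and 6.20 in shControl cells. The difference was 0.071 ± 0.41 at ND1, 0.099 ± 0.84 at ND3 and 1.46 ± 0.86 at ND6 on the log2 scale (edgeR adjusted p 1 for all 3), and its sign at ND1 and ND3 changed when single libraries were left out. For NODAL at hES the ratio was 0.601 in shKBTBD8 cells and 1.05 in shControl cells. edgeR and DESeq2 called no member at any stage, no member had an unadjusted p under 0.05, and edgeR called 0 of 17681 transcripts at each stage (175 to 658 at an unadjusted p under 0.05).

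The second set, which shares no library with the first, showed the same loss between hES and ND3. TDGF1 mRNA at ND3 was at 0.242 CPM with shKBTBD8, 0.426 with shTCOF1 and 0.293 with shControl, whereas the 4 hES libraries ran between 147.7 and 255.8 CPM. NODAL, LEFTY1 and LEFTY2 held 2 counts or fewer in each ND3 mRNA library. With stage and hairpin as additive terms, edgeR called all 5 genes lower at ND3, among 31.2% of all transcripts, with TDGF1 at -9.36 ± 0.14 (adjusted p 1.1e-08), LEFTY2 at -7.80 ± 0.74 (5.6e-05) and CER1 at -5.34 ± 1.23 (0.0053). Of the footprints, 4 of 5 genes were called lower, among 8.52%, with TDGF1 at -6.49 ± 0.56 (adjusted p 7.1e-06) and LEFTY1 at -5.82 ± 1.13 (0.0031). CER1 was the exception (adjusted p 0.17). Without the hES shKBTBD8 footprint library 1 gene was still called.

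The shKBTBD8 hES library of the second set held high CER1 and LEFTY mRNA. CER1 was at 21.4 CPM in that library and 2.55 and 0.377 CPM in the shControl libraries, a ratio of pooled counts of 19.8 (14.3 to 28.4). LEFTY1 was at 29.4 CPM with shKBTBD8 and 12.9 and 3.94 CPM with shControl, a ratio of 4.31 (3.72 to 5.02). LEFTY2 was at 29.2 CPM with shKBTBD8 and 9.51 and 3.22 CPM with shControl, a ratio of 5.57 (4.72 to 6.58). Each of these shKBTBD8 values lay above both shControl libraries, but the shControl libraries differed widely from each other.

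NODAL was at 14.3 CPM with shKBTBD8 and 12.3 and 2.47 CPM with shControl. TDGF1 went the other way from the LEFTY genes, at 147.7 CPM with shKBTBD8 and 228.9 and 245.6 CPM with shControl, a ratio of 0.615 (0.591 to 0.640). Footprints of CER1, LEFTY1, LEFTY2 and TDGF1 went the same way as their mRNA. CER1 footprints were at 29.0 CPM with shKBTBD8 and 3.63 and 0 CPM with shControl. TDGF1 footprints were at 189.8 CPM with shKBTBD8 and 341.2 and 346.2 CPM with shControl. NODAL footprints, at 8.53 CPM with shKBTBD8, lay between the shControl libraries, at 13.1 and 0.945 CPM.

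Across both stages of the second set, edgeR called 0 of 5 genes for shKBTBD8 in mRNA, against 0.0227% of all transcripts. The log2 changes were 3.35 ± 0.99 for CER1 (adjusted p 0.37), 2.18 ± 0.51 for LEFTY2 (0.27), 1.84 ± 0.49 for LEFTY1 (0.33), 0.97 ± 0.66 for NODAL (0.68) and -0.66 ± 0.12 for TDGF1 (0.16). All but NODAL had an unadjusted p under 0.05, as had 1636 of 17647 transcripts. DESeq2 called 1 gene, TDGF1 (-0.68, adjusted p 0.014), among 124 transcripts. The directions for CER1, LEFTY2 and NODAL rest on the hES shKBTBD8 library, without which they were -5.46, -1.16 and -2.99. Those values rest on the ND3 shKBTBD8 library, with 0 CER1, 1 LEFTY2 and 0 NODAL counts. The ND3 shControl library held 7, 1 and 1, too few to judge a direction. Without the ND3 shKBTBD8 library, CER1 (4.10, adjusted p 0.00704) and LEFTY2 (2.32, 0.042) passed. In footprints 0 of 5 passed by edgeR or DESeq2, LEFTY1 and TDGF1 having an unadjusted p under 0.05, while of 17017 transcripts edgeR called 0, DESeq2 called 38, and 733 had an unadjusted p under 0.05.

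With shTCOF1 the LEFTY genes lay low in hES cells. LEFTY1 mRNA was at 2.34 CPM with shTCOF1 and 12.9 and 3.94 CPM with shControl, a ratio of 0.344 (0.251 to 0.464), and LEFTY2 at 2.04 CPM with shTCOF1 and 9.51 and 3.22 CPM with shControl, a ratio of 0.389 (0.276 to 0.538). In footprints LEFTY1 was at 0.924 CPM with shTCOF1 and 10.5 and 6.30 CPM with shControl, and LEFTY2 at 1.06 CPM with shTCOF1 and 10.5 and 9.14 CPM with shControl. In both assays the shTCOF1 library lay below both shControl libraries for these genes. NODAL mRNA, at 6.82 CPM with shTCOF1, and CER1 mRNA, at 0.825 CPM, lay between the shControl libraries, and TDGF1 was at 255.8 CPM with shTCOF1 and 228.9 and 245.6 CPM with shControl.

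For shTCOF1 edgeR called 0 of 5 genes and 0 of 17647 transcripts in mRNA (adjusted p 0.92 to 1.00 for the 5 genes). LEFTY1 was the 1 gene with an unadjusted p under 0.05, as were 940 transcripts, and DESeq2 called none of the 5 and 22 transcripts. In footprints edgeR called 0 of 5 genes and 0 of 17017 transcripts, with 2 genes, LEFTY1 and LEFTY2, and 299 transcripts at an unadjusted p under 0.05, and DESeq2 called none of the 5 and 15 transcripts. With 1 shTCOF1 library per stage and assay, its values have no replicate of their own.

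At ND3 the second set did not share the rise of TDGF1 with shKBTBD8 seen in the first. TDGF1 mRNA was at 0.242 CPM with shKBTBD8 and 0.293 CPM with shControl, on 7 and 8 counts, a ratio of 0.826 (0.255 to 2.61). Its footprints held 0 counts with shKBTBD8 and 77 with shControl (9.61 CPM), at least 14.02-fold lower with shKBTBD8 at a floor of 3 counts. With shTCOF1 they held 4 counts (0.727 CPM), a ratio to shControl of 0.0757 (0.0201 to 0.202). The shControl footprint library thus lay above the first-set shControl libraries, at 2.93 and 1.37 CPM, although each set was scaled on its own.

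The sets were therefore compared directly, in 1 edgeR model per assay over all 23 libraries, a comparison added after the data were seen. The second set has 1 library per arm at ND3 and 1 shKBTBD8 library at hES, so the errors below come from the other groups, and the lone libraries are assumed to vary like them. The shKBTBD8 effect on CER1 mRNA at hES was 4.09 in the second set and -0.14 in the first, a difference of 4.23 ± 0.78 (adjusted p 0.031, with 0.249% of transcripts called). The effect on TDGF1 footprints at ND3 differed by -11.50 ± 1.46 (adjusted p 0.00026, with 0.0975% called), a size that depends on the prior count because the shKBTBD8 library of the second set is at 0. The effect on TDGF1 mRNA at ND3 was -0.27 in the second set and 2.74 in the first (-3.01 ± 0.82, adjusted p 0.091, with 1.62% called). For footprints at hES no difference was called among the 5 genes (adjusted p 1.00 for each), with 0.0172% called. For NODAL, LEFTY1 and LEFTY2 mRNA at hES the effects were 1.02, 1.86 and 2.26 in the second set and 1.27, 0.88 and 0.91 in the first, with no difference called (adjusted p 0.99, 0.84 and 0.64). TDGF1 mRNA at hES had effects of opposite sign, -0.69 in the second set and 0.21 in the first. This difference of -0.90 ± 0.26 was not called either.

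What separates the sets is not given in the labels, so its part in these differences was not tested.

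Across the 8 mRNA group means of the first set, the profile of NODAL was compared with those of 15965 transcripts. Their mean count was 50 or more, except that LEFTY1, LEFTY2, TDGF1 and CER1 were kept at any count. The closest were uc002hda.1 (Pearson's r of log2 CPM 0.996) and uc002hcy.1 (0.996), which the files do not name. Among the other genes LEFTY2 ranked 16 (r = 0.989), LEFTY1 270 (0.957) and TDGF1 2368 (0.823). CER1, with 4 counts or fewer per group at ND1 and ND6, ranked 3801 (0.709). These values describe the shape over 8 points that share their libraries, high in hES and low after, and carry no test.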

How the data were processed

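The authors deposited whole-number counts per transcript row, 1 file per library, in which each row also has a length value. Per the submitters' processing notes, CASAVA 1.8, Bowtie2 2.0.6, TopHat2 2.0.7 and the hg19 build were used; the counting program, the strand and the treatment of multiply mapped reads were not given in the sources used here. Neighbouring isoform rows repeat the same reads. They were therefore joined, where their mean count was 10 or more and they lay within 20 rows of each other, if a chi-square per degree of freedom over the 46 libraries was below 2, and 63691 rows gave 17681 transcripts. The row of each gene described stood for its group, so LEFTY1 and LEFTY2 were both kept.

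The counts were tested with edgeR 4.0.16 in R 4.3.3 (TMM factors, filterByExpr, quasi-likelihood F-test, standard errors from the F statistic, Benjamini-Hochberg over all transcripts tested, threshold 0.05). First-set models held all 8 groups of an assay, translational efficiency was the interaction of assay and group, and the second set used additive terms for stage and hairpin. CPM are counts over TMM-scaled totals of 1 row per transcript. Bounds against 0 counts use 3 counts over the group. Alternatives were DESeq2 1.42.0, its size factors, no filter, all deposited rows, only the groups compared, a replicate block, both sets together and each library left out. The scripts were tested on simulated data with 200 changed transcripts. Between hairpins at ND3, a log2 change of 1 was recovered for 67.0% in mRNA, 0% in footprints and 0% in translational efficiency. A change of 2 was recovered for 97.5%, 47.0% and 42.0%. Missing calls in footprints and translational efficiency therefore do not show that such changes were absent. For second-set shKBTBD8 mRNA, 78.0% and 92.0% were recovered, with 24 and 18 false calls.

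The genes named are the 5 that the rule takes and the 2 identifiers whose mRNA profile is closest to that of NODAL. The genes and lists were chosen with earlier results of these data known. Lists of other pathway genes and of cell type markers could not be applied, since no identifier of the files matched the gene tables. Replicate numbers were not taken to pair samples, since deviations of same-numbered libraries did not correlate above 0.1 in every pair of groups.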

Additional observations from a re-analysis of the deposited data

Results flagged for a closer look

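The shKBTBD8 effect on TDGF1 mRNA differed between stages, being larger at ND3 than at hES by 2.52 on the log2 scale (edgeR interaction test, adjusted p 0.0029). Both shKBTBD8 libraries lay above both shControl libraries at ND3 in the first set. The second set did not share this rise, with TDGF1 mRNA at 0.242 CPM with shKBTBD8 and 0.293 CPM with shControl. With both sets fitted together the ND3 difference between hairpins was not called (2.30, edgeR adjusted p 0.051).

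The shKBTBD8 effect on CER1 mRNA in undifferentiated cells differed between the sets by 4.23 (second less first, edgeR adjusted p 0.031). It rests on 1 shKBTBD8 library of the second set, at 21.4 CPM, and on shControl libraries that held 2.55 and 0.377 CPM.

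The shKBTBD8 effect on TDGF1 footprints at ND3 differed between the sets by -11.50 (second less first, edgeR adjusted p 0.00026). The shKBTBD8 library of the second set held no TDGF1 count and the shControl library held 77. These are 1 library each, the comparison was added after their counts were seen, and the error comes from other groups, so this value has no replicate check within the second set. No cause of these differences was tested.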

How the results depend on the processing

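Counts of called genes below are over the 5 genes and all stages or days of a comparison. With the replicate number as a block, calls between hairpins in mRNA numbered 4, against 2 without it, NODAL (1.26, adjusted p 0.016) and LEFTY1 (0.88, adjusted p 0.035) at hES being gained; correlations of same-numbered deviations ran between -0.0715 and 0.812 in mRNA (20 of 28 pairs of groups over 0.1) and -0.155 and 0.430 in footprints (13 of 28). With both sets together, hairpin calls at hES and ND3 were 0 in mRNA and 0 in footprints, against 1 each. DESeq2 gave 2 calls, against 1, for the mRNA effect relative to hES; 1, against 0, for second-set shKBTBD8 mRNA; 12, against 7, for shControl conversion in footprints, as did a fit of only the groups compared (12); 2, against 1, between hairpins in footprints; 1, against 0, for the footprint effect relative to hES; and 2, against 0, for translational efficiency in conversion.

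Leaving out 1 library at a time gave, in mRNA, 14 to 15 calls for shControl conversion, 14 for shKBTBD8 conversion, 2 between hairpins, 1 for the effect relative to hES, 5 for ND3 in the second set, 0 to 2 for its shKBTBD8 and 0 for its shTCOF1. In footprints it gave 5 to 12, 6 to 9, 0 to 1, 0 to 1, 1 to 5, 0 and 0 in the same order, and for translational efficiency 0 to 1 in conversion and 0 between hairpins.

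Signs reversed as follows (log2). With both sets together, shKBTBD8 changes at hES were -0.26 for TDGF1 mRNA, -0.24 for its footprints and 2.13 for CER1 mRNA, and the TDGF1 translational efficiency difference at ND3 was -1.35. Without single libraries, shKBTBD8 changes in mRNA ran between -0.42 and 0.088 for CER1 at hES, and for TDGF1 at ND6 between -0.16 and 0.51, and -0.37 and 0.30 relative to hES. Second-set shKBTBD8 mRNA ran between -2.99 and 2.39 for NODAL, -1.16 and 3.04 for LEFTY2 and -5.46 and 4.25 for CER1, and TDGF1 footprints of shKBTBD8 cells at ND1 between -0.14 and 0.073. The lowest second-set values come from the fit without the hES shKBTBD8 library. That fit rests on the ND3 shKBTBD8 library, with 0 NODAL, 1 LEFTY2 and 0 CER1 counts. TDGF1 translational efficiency ran between -0.10 and 0.36 at ND1 and -0.39 and 3.05 at ND6 in shControl conversion, and between -0.13 and 0.33 at ND1 and -0.42 and 0.73 at ND3 between hairpins. The cause was not tested. Levels on the deposited totals, which count repeated rows, were 0.390 to 0.505 of those given. NODAL, LEFTY1, LEFTY2 and CER1 held few footprint counts after hES, so differences between hairpins could not be judged there. The deeper mRNA libraries of the first set also held few at ND3, with 1 NODAL and 3 LEFTY1 counts per group.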
